A study of Mus musculus with 15 samples.

Results

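Binding of SAM68 to the transcripts of 5 classical cadherin genes was followed through the differentiation of mouse embryonic stem cells. The genes were Cdh1 (E-cadherin), Cdh2 (N-cadherin), Cdh3 (P-cadherin), Cdh6 (K-cadherin) and Cdh11 (OB-cadherin), and their sites were taken from the deposited lists through the Ensembl gene ID that the authors attached to each site. The 5 genes held 327 of 132293 sites over 3 lists and were 5 of 7949 genes with a site. SAM68 (Khdrbs1) belongs to the STAR family of RNA-binding proteins and acts in splicing and RNA processing. It was mapped by iCLIP2, a method in which ultraviolet light joins the protein to RNA, an antibody recovers it, and the joined nucleotide is read from the stop of reverse transcription.

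All groups came from E14 mouse embryonic stem cells, with no genotype or further agent named that would set one group apart from another. Day 0 cells were undifferentiated, grown without feeder cells in serum medium with Leukemia Inhibitory Factor and the 2i inhibitors CHIR-99021 and PD0325901. Day 3 cells were embryoid bodies from hanging drops, and day 10 cells were embryoid bodies from spheroid microplates. Both came from medium with serum, and were dissociated with TrypLE before irradiation. Embryoid bodies are aggregates in which stem cells give rise to several tissues at once. The labels give 5 libraries for each day, 15 in all, and the culture format of the bodies and the day cannot be told apart. Control libraries without antibody or crosslinking were not analysed here.

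Classical cadherins are calcium-dependent adhesion proteins whose outer domains bind cadherins of neighbouring cells and whose tails bind beta-catenin and p120-catenin. Alpha-catenin links this complex to actin. In a cadherin switch, as at gastrulation when epiblast cells become mesoderm, cells reduce E-cadherin and gain N-cadherin. Cdh1, Cdh2 and Cdh3 are type I cadherins, and Cdh6 and Cdh11 are type II cadherins.

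The day 0 list held 29740 sites, the day 3 list 28266 and the day 10 list 74287, each site 5 nt wide. The authors deposited 1 list per day without values for single libraries, so there is no measure of replicate spread and days could not be tested against each other. A share is a gene's number of sites per 10000 sites of that day's list, which removes the difference in list length. Intervals in brackets are exact 95% intervals that cover counting error only, and neighbouring sites of 1 gene are not independent. Because RNA levels were not used here, site numbers cannot be told apart from transcript abundance, and in these mixed bodies fewer cells of a type and less RNA per cell cannot be told apart either. Marker genes describe the days, but their lists were chosen with earlier results of these data known and are no independent check of the labels. Those of naive stem cells, 9 genes, had 166 sites on day 0, 10 on day 3 and 6 on day 10. The 4 markers of primed epiblast held 0, 48 and 0, and 11 markers of cardiac mesoderm and heart muscle held 0, 4 and 716, of which 439 lay in Slc8a1. Sox2, Nkx2-5 and Myh7 were at 0 on every day, and of 5 neural markers Robo2 alone held sites, 149 on day 10. On day 10 the 6 endoderm markers had 119 sites against 0 on day 0, 5 endothelial markers 39 against 6, and 5 markers of mesenchyme 39 against 0, with Sox17, Foxa2, Kdr and Prrx1 at 0 on every day. Of the endoderm sites, 80 lay in Dab2 and 33 in Gata6. Among the endothelial markers Flt1 held 29 of the 39 sites, while Pecam1 went the other way with 6, 0 and 0.

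Cdh1, the cadherin of epithelia and of stem cell colonies, was the one member with sites on every day. It held 13 sites on day 0, 25 on day 3 and 14 on day 10. As shares these were 4.37 (2.33 to 7.47), 8.84 (5.72 to 13.1) and 1.88 (1.03 to 3.16) per 10000. The highest share was thus that of day 3 and the lowest that of day 10. The day 10 share was 0.213 times the day 3 share (0.102 to 0.426) and 0.431 times the day 0 share (0.188 to 0.996). The second interval ended just short of equality, and it reached past it without the 100 genes with most sites (0.202 to 1.07) and with sites at most 500 nt apart merged (0.223 to 1.62). The day 3 share was 2.02 times the day 0 share, with an interval that reached just below equality (0.997 to 4.31), and just above it without those 100 genes (1.001 to 4.32). Scaled by the number of bound genes in place of the number of sites, the day 10 to day 0 ratio of Cdh1 was 0.858 and the day 10 to day 3 ratio 0.444, so the size of the difference rests on how the longer day 10 list is scaled.

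Cdh2, the cadherin of neural tissue, mesoderm and the intercalated discs of heart muscle, was at 0 sites in the day 0 and day 3 lists and had 69 on day 10. Its day 10 share was 9.29 per 10000 (7.23 to 11.8), and 97.3% of the 6345 genes of that list held fewer sites. Since the lists hold called sites only, a listing at 0 gives no floor, and no ratio is given for Cdh2.

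Cdh3, which was first described in placenta and is also found in basal epithelia, had no site on day 0, 5 on day 3 and 52 on day 10. The shares on day 3 and day 10 were 1.77 (0.574 to 4.13) and 7.0 (5.23 to 9.18) per 10000. The day 10 share was 3.96 times the day 3 share (1.59 to 12.7), and 8.25 times with the number of genes as the scale. With sites at most 500 nt apart merged, its interval included equality (0.986 to 11.4). Cdh3 was the only member besides Cdh1 with a site on day 3.

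Among the type II cadherins, Cdh6, known from developing kidney and neural crest, was bound at 52 sites on day 10 and at 0 on both earlier days. Its day 10 share, 7.0 per 10000, equalled that of Cdh3. Cdh11, a cadherin of mesenchyme and bone-forming cells, had 1 site on day 0, none on day 3 and 96 on day 10, the highest number of the 5 genes. Its day 10 share was 12.9 per 10000 (10.5 to 15.8), and it ranked 85 of the 6345 genes of the list by number of sites. Against the single day 0 site this was 38.4 times the share, with a wide interval (6.74 to 1534). Under the gene-number scale the ratio of Cdh11 was 76.5.

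**Figure D1:**
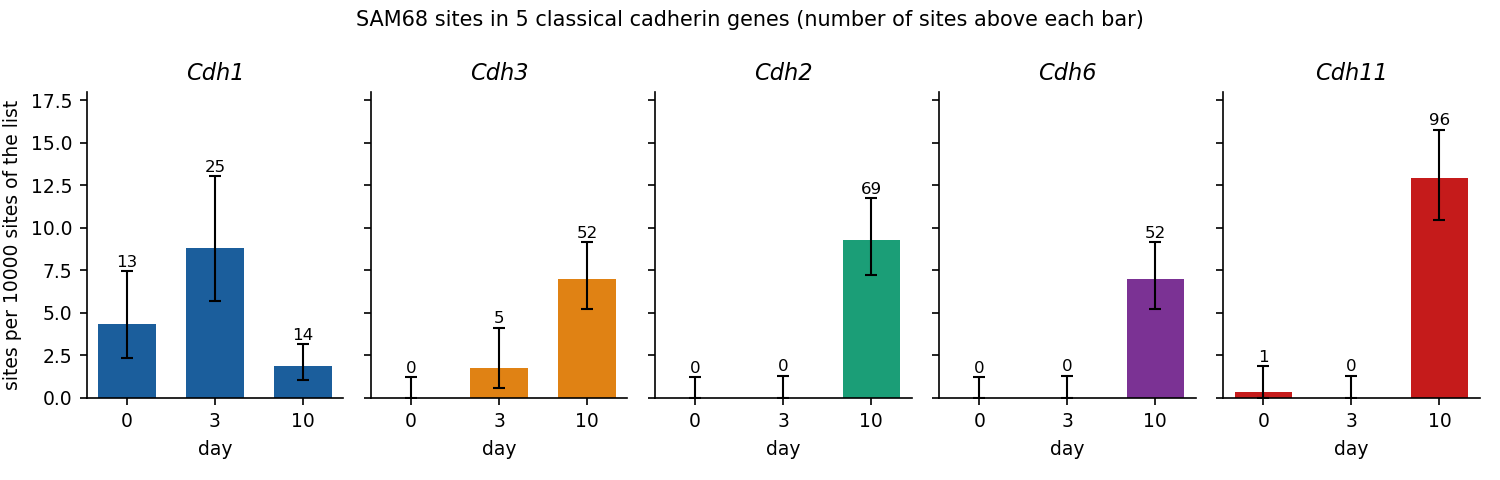
Share of SAM68 sites in each cadherin gene by day, in sites per 10000 sites of that day's list (bars), with exact 95% Poisson intervals (lines) and the number of sites above each bar. Cdh1 was highest on day 3 with 25 sites, while Cdh3, Cdh2, Cdh6 and Cdh11 had 52, 69, 52 and 96 sites on day 10, with 5 or fewer in each earlier list.

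The 5 genes were read against all genes. The day 10 and day 0 lists together had 10 or more sites in 2425 genes, of which 34.1% held a share at least 2 times larger on day 10 and 24.7% a share at least 2 times smaller. Cdh2, Cdh3, Cdh6 and Cdh11 were in the first set and Cdh1 in the second. The 4 genes reached the minimum of 10 sites through day 10 alone and could therefore fall only on that side, so their number is a description. The interval of the ratio lay above equality in 22.5% of the 2425 genes and below it in 18.9%, and 12.7% had no day 0 site, as Cdh2, Cdh3 and Cdh6 did. For day 10 against day 3, the same 4 genes lay among the 29.1% of 2333 genes with a share at least 2 times larger and Cdh1 among the 21.3% with a smaller one, and 9.86% of the 2333 had no day 3 site, as Cdh2, Cdh6 and Cdh11 did. For day 3 against day 0, Cdh1 was the one member with 10 sites and lay just inside the 19.3% of 1573 genes with a share at least 2 times larger, while 20.3% had a smaller one and no member did. A pattern of this kind was therefore common in these lists. Sites in such number were less so, since 302 of 7949 genes (3.80%) held at least 50 sites on day 10. Of the 302, 33 (10.9%, or 0.415% of the 7949), Cdh2 and Cdh6 among them, had none on either earlier day. The 10.9% is near the 12.7% without a day 0 site and the 9.86% without a day 3 site. The cut of 50 lies just below the 52 sites of Cdh3 and Cdh6.

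**Figure D2:**
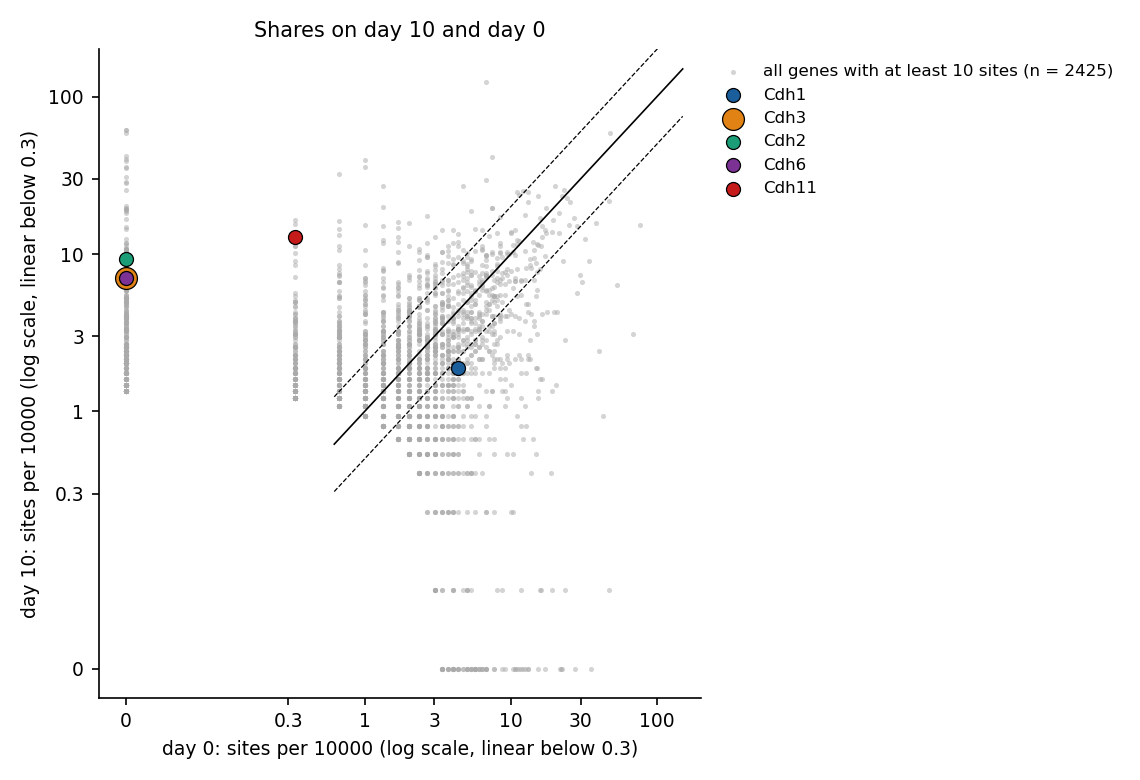
Shares on day 10 (vertical) against day 0 (horizontal), in sites per 10000 sites of the list, on log axes that are linear below 0.3, for the 2425 genes that reach 10 sites in the 2 lists together (grey) and the 5 cadherins (colours). The full line marks equal shares and the broken lines a 2-fold difference. Cdh3 and Cdh6 share 1 position at 0 on day 0 and 7.0 on day 10, and Cdh1 lies below the lower broken line.

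A ratio between cadherins within a list does not depend on how the length of the list is scaled. Cdh3 and Cdh1 are neighbours on chromosome 8 in the same orientation, with 46.4 kb between the end of Cdh3 and the start of Cdh1 and no protein-coding RefSeq gene between them. Cdh3 and Cdh1 held 0 and 13 sites on day 0, 5 and 25 on day 3, and 52 and 14 on day 10. The number of Cdh3 sites for each Cdh1 site was 0.200 on day 3 (0.0598 to 0.532) and 3.71 on day 10 (2.03 to 7.26). The order of these neighbours was thus turned between day 3 and day 10 under any scaling of the lists. Whether depth or site calling, both unknown here, acted unequally on these genes was not tested. For Cdh2 and Cdh1 the numbers were 0 and 13, 0 and 25, and 69 and 14.

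The genes differ in length, and their levels were compared as sites per 100 kb of the RefSeq gene span. Spans were 220 kb for Cdh2, 153 kb for Cdh11, 148 kb for Cdh6, 66.9 kb for Cdh1 and 46.1 kb for Cdh3. On day 10 the density was highest in Cdh3, at 113 sites per 100 kb (84.3 to 148), which lay above 96.5% of protein-coding genes with a day 10 site. Cdh11 followed with 62.6 (50.7 to 76.4), Cdh6 with 35.2 (26.3 to 46.2), Cdh2 with 31.3 (24.4 to 39.6) and Cdh1 with 20.9 (11.4 to 35.1). The median of the 5772 protein-coding genes was 12.2. By density Cdh11 lay above 90.2% of these genes, Cdh6 above 79.4%, Cdh2 above 76.9% and Cdh1 above 65.9%. Cdh3 exceeded Cdh11 by a density ratio of 1.80 (1.26 to 2.55) and Cdh11 exceeded Cdh6 by 1.78 (1.26 to 2.54). Cdh6 and Cdh2 did not differ beyond counting error (1.12, 0.769 to 1.64), nor did Cdh2 and Cdh1 (1.5, 0.834 to 2.88). On day 3, Cdh1 had 37.4 sites per 100 kb and Cdh3 10.9, a ratio of 3.44 (1.29 to 11.5), and on day 0 Cdh1 had 19.4 and Cdh11 0.652.

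Per length the order of the type I cadherins was therefore not that of the raw numbers. Cdh2 held more sites than Cdh3 on day 10, in a gene with a much longer span, and ranked below it by density.

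The sites were then placed along the genes in the coordinates of the lists, GRCm38, at the centre of each site. Cdh1 spans chr8:106603350-106670247 and Cdh3 chr8:106510852-106556911 on the plus strand, and Cdh11 spans chr8:102632095-102785493, Cdh2 chr18:16588877-16809246 and Cdh6 chr15:13028699-13176407, with sites on the minus strand. All member sites lay inside these spans, and each gene's sites were on 1 strand. Exons, introns and untranslated regions were not annotated here. The span of Cdh6 overlaps those of 2 RefSeq non-coding genes, Gm35018 and Gm46513. Sites in overlapping genes had been removed by the authors, so sites in such stretches of Cdh6 may be missing, depending on the authors' own annotation.

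Most Cdh1 sites lay towards the 5′ end on each day. Divided into 5 equal parts from 5′ to 3′, the gene held 5, 6, 2, 0 and 0 sites on day 0. On day 3 it held 9, 9, 3, 1 and 3, and on day 10 it held 5, 5, 3, 0 and 1. The last 2 parts thus held no site on day 0, 4 on day 3 and 1 on day 10. That single day 10 site lay 105 nt from the 3′ end of the span, after a stretch of 30.4 kb without sites.

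Some Cdh1 positions recurred. Sites on the same strand that shared at least 1 nt were counted as the same position. Of the 13 day 0 sites, 4 recurred on day 3 (30.8%, 9.09 to 61.4) and 3 on day 10 (23.1%, 5.04 to 53.8). Over all genes, 17.4% of day 0 sites recurred on day 3 and 24.1% on day 10, inside the intervals of Cdh1. Of the 25 day 3 sites of Cdh1, 3 recurred on day 10 (12.0%, 2.55 to 31.2), against 25.9% over all genes. A pair of positions was present on all 3 days at the identical nucleotide, centred at 106625672 and 106627760 of chromosome 8, which is 22.3 kb and 24.4 kb from the 5′ end of the span.

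In Cdh3, 3 of the 5 day 3 sites were found again among the 52 of day 10, centred on day 10 at 106540748, 106546001 and 106547997. The only day 0 site of Cdh11, centred at 102683107 and 102 kb from the 5′ end, was present at the same nucleotide on day 10. For Cdh3 the recurring share was 60.0% with a wide interval (14.7 to 94.7), against 25.9% of day 3 sites over all genes, and a single site gives Cdh11 no usable share.

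**Figure D3:**
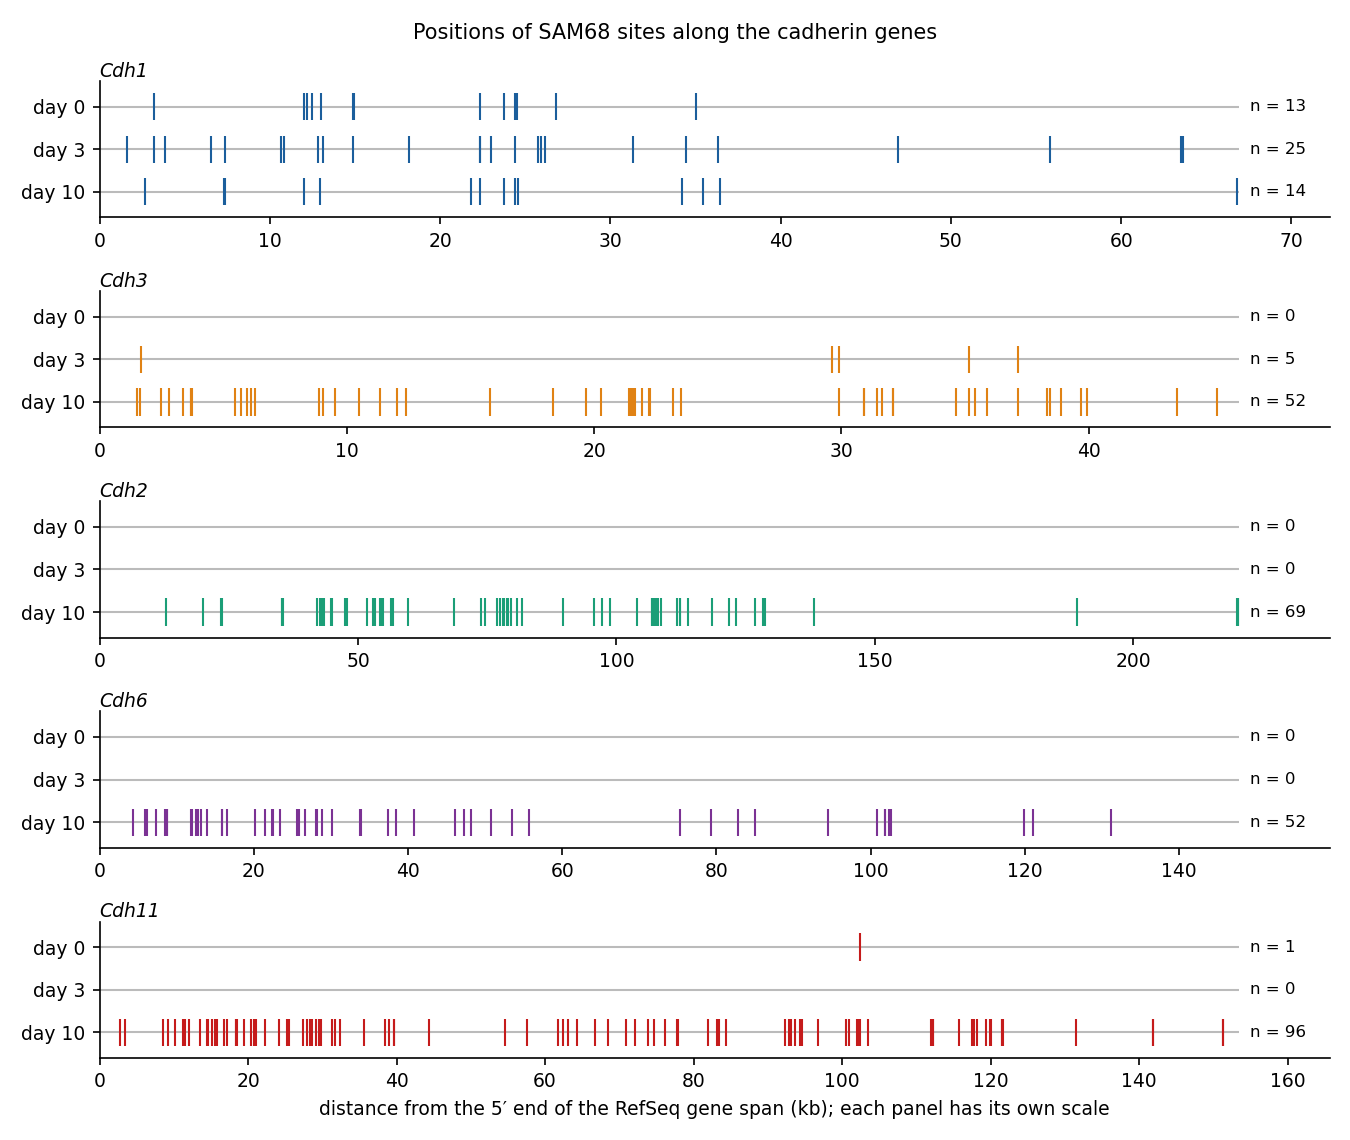
Positions of all 327 sites (vertical ticks) along each cadherin gene by day, as distance in kb from the 5′ end of the RefSeq span, with the number of sites at the right. Each panel has its own scale. Sites of Cdh1 recur at 22.3 kb and 24.4 kb on all days, and Cdh2 has a stretch of 50.9 kb without sites on day 10 and a group at its 3′ end.

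On day 10 the 4 other cadherins differed in where their sites lay. Cdh2 held 13, 26, 25, 1 and 4 sites in the 5 equal parts of its span, so that 64 of 69 were in the first 3 parts. No site lay between 138 kb and 189 kb from its 5′ end. Of the 4 sites of the last part, 3 lay 109, 177 and 314 nt from the 3′ end of the span, and no other member had more than 1 site within the last 1 kb. The densest 10 kb of Cdh2, chr18:16695305-16705304, held 15 sites (21.7%).

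Cdh6 held 27, 12, 4, 6 and 3 sites from 5′ to 3′, so that 51.9% lay in the first part, the highest such value of the 5 genes on day 10. Over the first 3 parts together it held 43 of 52 sites, a smaller portion than Cdh2. Its sites ended 16.5 kb before the 3′ end. Its median site lay at 0.193 of the span, against 0.474 over sites of the protein-coding genes with spans of 40 to 250 kb, a range chosen with the data known to hold all 5 members. Those genes as a whole were nearly even, with 22.0%, 20.6%, 20.2%, 18.7% and 18.6% of sites in the 5 parts.

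Cdh11 held 35, 11, 18, 27 and 5 sites, with groups near the 5′ end and in the fourth part. Cdh3 was the nearest to even, with 15, 7, 11, 11 and 8. The last part held 5.21% of the Cdh11 sites (1.71 to 11.7), 5.77% in Cdh6 (1.21 to 15.9), 5.80% in Cdh2 (1.60 to 14.2), 7.14% in Cdh1 (0.181 to 33.9) and 15.4% in Cdh3 (6.88 to 28.1). The 18.6% of genes of like span lay above the intervals of Cdh2, Cdh6 and Cdh11 and within those of Cdh1 and Cdh3. It pools the sites of all those genes, and the spread between single genes was not measured.

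**Figure D4:**
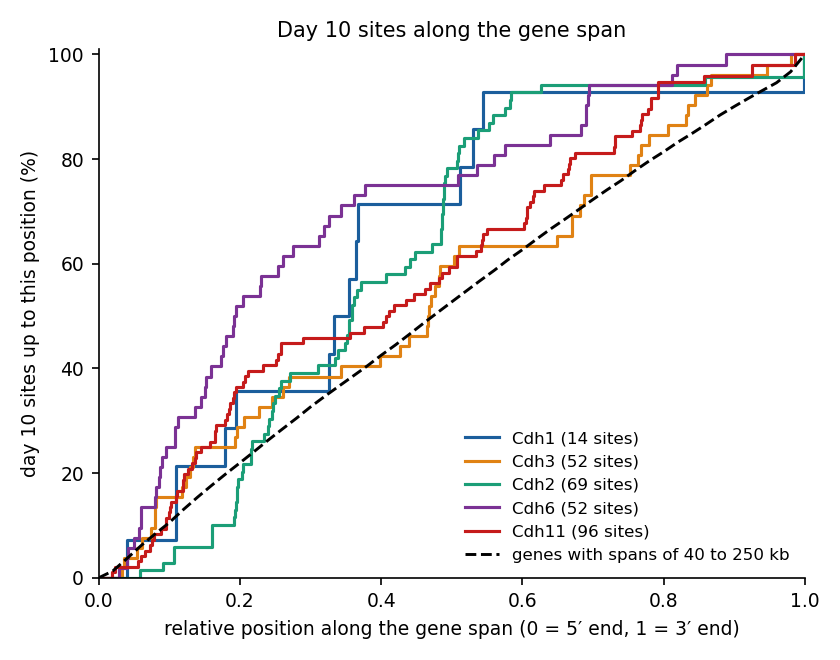
Percent of each gene's day 10 sites found up to a given relative position, from the 5′ end (0) to the 3′ end (1) of the gene span, for the 5 cadherins (steps) and for protein-coding genes with spans of 40 to 250 kb (broken line). Cdh6 climbs earliest, with 27 of 52 sites in the first of 5 equal parts, and Cdh3 stays nearest to the broken line.

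Neighbouring day 10 sites were 458 nt apart at the median in Cdh3, 692 nt in Cdh2, 696 nt in Cdh11, 1103 nt in Cdh6 and 1188 nt in Cdh1. For the 349 genes with 40 to 120 day 10 sites the median of this distance was 676 nt, with quartiles of 488 and 1026 nt. Cdh2 and Cdh11 lay inside these quartiles, Cdh3 below and Cdh6 above them. Neighbours at most 50 nt apart were few, with 8 such pairs in Cdh11, 4 in Cdh3, 3 in Cdh2, 2 in Cdh6 and 1 in Cdh1. The called sites were thus spread along the genes. Because the lists give separate sites without a signal value, stacking of signal at a single point could not be seen.

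Genes with the most similar course over the 3 days were found by the distance between profiles, the shares of the 3 days divided by their sum, among genes with 0.5 to 2 times as many sites. Nearest to Cdh1 were Pde4d, a phosphodiesterase for cyclic AMP, with 23, 44 and 23 sites on day 0, day 3 and day 10, Tle4, a corepressor, with 15, 27 and 15, and Trim71, an RNA-binding protein of stem cells, with 14, 30 and 18. Their distances were 0.00921, 0.0181 and 0.0296. Cdh2 shared its course with 35 genes that also had day 10 sites alone, and the nearest in number were Nrk with 68, Parva, an adaptor of integrin adhesions, with 67, and App, the amyloid precursor protein, with 73. Cdh6 shared its course with 48 genes, with Sox5 and Tshz2 at 53 sites each and Samd4 at 50 the nearest. For Cdh3 they were Elf1 with 0, 5 and 55 sites, Sema6a with 0, 4 and 44, and Ube2e2 with 0, 7 and 79. For Cdh11 they were Meis1, a homeodomain factor, with 1, 0 and 75 sites, Zmiz1 with 1, 0 and 67, and Kcnq5 with 1, 1 and 122. With 3 days a profile has few degrees of freedom, and the likeness is a description.

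Of 54 other members of the cadherin superfamily that were looked up, 15 (27.8%) had a site in a named gene, against 32.2% of 21896 RefSeq protein-coding genes. The 54 leave out the cadherins followed above, all of which had sites. Sites of the 15 genes numbered 23 on day 0, 15 on day 3 and 305 on day 10, of which Pcdh7, a protocadherin, held 0, 0 and 267. Pcdh7 had 64.0 sites per 100 kb on day 10, close to the 62.6 of Cdh11. Fat1, a giant cadherin, held 4, 5 and 13 sites and Dsg2, a desmosomal cadherin of epithelia and heart, 12, 2 and 9, a day 10 share of 0.30 times day 0 (0.112 to 0.776). Fat3 held 0, 0 and 6 and Clstn1, a calsyntenin, 3, 1 and 1. Cdh10 held 4 sites and Cdh9 2, all on day 3, and Cdh5, the cadherin of endothelium, 1 on day 10. Cdh4 and Cdh18 held 1 site each, on day 0. No site in a named gene was listed for Cdh7, Cdh8, Cdh12, Cdh15, Cdh19, Cdh20, Cdh22 or Cdh24. The day 10 numbers of the members were thus not shared by these other Cdh genes. Of the 3 genes that reached 10 sites over day 10 and day 0, Pcdh7 held a larger share on day 10 and Dsg2 a smaller one, each by at least 2 times. Over all 2425 genes 34.1% held a share as much larger and 24.7% one as much smaller. Pcdh7 reached the minimum through day 10 alone, which fixed its side. The median log2 ratio of the 3 was 0.16, against 0.00 over all 2425 genes.

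Catenins and other partners of the adherens junction formed a list of 28 genes, of which 24 had a site. Their sites numbered 213 on day 0, 335 on day 3 and 939 on day 10, or 71.6, 119 and 126 per 10000, while the 5 cadherins together had shares of 4.71, 10.6 and 38.1 per 10000. Of 16 partners that reached 10 sites over day 10 and day 0, 8 held a share at least 2 times larger on day 10, 2 a smaller one and 6 lay between, with a median log2 ratio of 0.72 against 0.00 over all genes tested. Over all 2425 genes 34.1% held a larger share and 24.7% a smaller one. Of the 8, Ctnna3, Pkp2, Nectin3, Ptprm and Tjp1 reached the minimum through day 10, which fixed their side. Afdn, with 7 sites on day 0 and 59 on day 10, also reached it only with its day 10 sites. This bears on the count and the median. Set against day 3, the day 10 share was larger by this measure for 5 partners, smaller for 4 and between for 7. Over all 2333 genes of that pair, 29.1% held a larger share and 21.3% a smaller one. The median log2 ratio was 0.22 for the partners against -0.07 over all genes. Of the 5, Ctnna3, Pkp2, Ptprm and Tjp1 again reached the minimum through day 10, which bears on the count and the median.

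The core catenins that reached 10 sites were among those between. Ctnnb1, beta-catenin, held 9, 9 and 18 sites, and its day 10 share was 0.801 times that of day 0 (0.342 to 2.02). Ctnna1, alpha-catenin, held 33, 15 and 86 sites, 1.04 times (0.691 to 1.61). Ctnnd1, p120-catenin, held 0, 2 and 3 sites and Jup, plakoglobin, 1, 0 and 0. Both intervals of beta- and alpha-catenin included equality. Ctnnb1, Ctnnd1 and Jup are named as components of the complex and were chosen after their values were seen.

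Larger differences were found among scaffold genes of the junction. Magi1, a scaffold of tight and adherens junctions, held 22, 97 and 306 sites, with a day 10 share of 5.57 times that of day 0 (3.61 to 9.02). Pard3, the polarity protein that marks apical junctions, held 34, 54 and 176, 2.07 times (1.43 to 3.09). Plekha7, which ties p120-catenin to microtubules, held 30, 31 and 31 sites and 0.414 times the share (0.242 to 0.707). Its numbers were thus level while the list grew, as those of Cdh1 were on day 0 and day 10. Ptprk, a receptor phosphatase of cell contacts, held 25, 35 and 84, 1.35 times (0.852 to 2.19). Ctnna3, the alpha-catenin of heart muscle, held 0, 0 and 22 sites, Pkp2, plakophilin of the heart's area composita, 0, 2 and 20, and Ptprm 0, 0 and 15. These 3 genes had the largest changes of the list and, like Cdh2, no site on day 0.

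**Figure D5:**
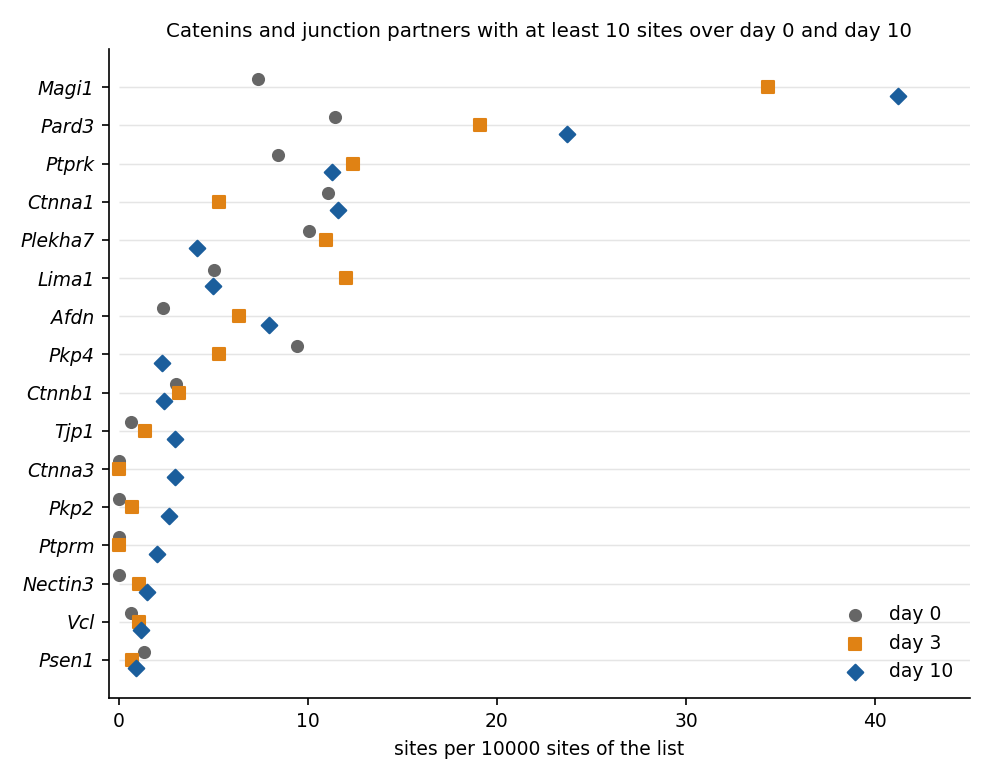
Shares of the 16 catenins and junction partners that reach 10 sites over day 0 and day 10, in sites per 10000 sites of the list, on day 0 (circles), day 3 (squares) and day 10 (diamonds). Magi1 held 22, 97 and 306 sites on the 3 days, and the diamonds of Pkp4 and Plekha7 lie to the left of their circles.

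Regulators of the transition between epithelium and mesenchyme held 38, 65 and 268 sites over 25 genes. Of 6 that reached 10 sites over day 10 and day 0, 4 held a share at least 2 times larger on day 10, 1 a smaller one and 1 lay between, with a median log2 ratio of 1.84 against 0.00. The 4 (Zeb2, Tcf4, Tgfb2 and Tgfbr1) reached the minimum through day 10, so this count and the median say nothing of the list. A share as much larger was held by 34.1% of all 2425 genes. Zeb1, a repressor of Cdh1 transcription, held 17, 0 and 78 sites, and its relative Zeb2 held 0, 0 and 37. Neither had a site on day 3, and a link to the Cdh1 sites was not tested. Tcf4, an E-protein, held 2, 24 and 84 sites, 16.8 times the day 0 share on day 10 (4.51 to 141), and Tgfbr1, a receptor for TGF-beta, 4, 8 and 24. Esrp1, a splicing factor of epithelia, held 0, 19 and 8, highest on day 3 as Cdh1 was. Klf5, a factor of stem cells and epithelia, held 10, 2 and 3 sites, 0.12 times (0.0212 to 0.466). Snai1 was at 0 on every day, and Snai2 and Twist1 had 2 and 1 on day 10.

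Epithelial genes other than cadherins had 6 sites on day 0, 10 on day 3 and 39 on day 10 over 14 genes, of which 11 had a site. Their shares were 2.02, 3.54 and 5.25 per 10000. Those with a site had spans from 1.81 kb (Cldn4) to 56.2 kb (Ocln), and none reached 10 sites over day 10 and day 0. Spint2 held 3, 3 and 4 sites, F11r 0, 0 and 8, Ocln 0, 0 and 7, St14 2, 1 and 3 and Krt18, a keratin of simple epithelia, 0, 0 and 5. On day 10 Krt18 had 131 sites per 100 kb, Cldn4 110 and Cldn6 96.8, from 5, 2 and 3 sites, beside the 113 of Cdh3, and the claudins were chosen after their values were seen.

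Mesenchymal genes held 36, 6 and 144 sites over 13 genes, or 12.1, 2.12 and 19.4 per 10000. Of 5 that reached 10 sites over day 10 and day 0, Sparc with 2, 3 and 26 sites, Postn with 0, 0 and 22, Col3a1 with 0, 0 and 18 and Pdgfra with 0, 0 and 17 held a share at least 2 times larger on day 10, as 34.1% of all 2425 genes did. These 4 reached the minimum through day 10, which fixed their side. Fn1, fibronectin, had 34, 3 and 29 sites and was the one with a smaller share, as in 24.7% of all genes. The median log2 ratio of the 5 was 2.85, against 0.00 over all genes. It is the value of Pdgfra, whose side was fixed in this way, so it says nothing of the list.

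The summed shares of the epithelial genes, the mesenchymal genes and the transition regulators were thus all larger on day 10 than on day 0, as were those of the heart muscle markers. The part of changing cell types in the cadherin values was not tested.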

How the data were processed

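SAM68 iCLIP2 was performed at day 0, day 3 and day 10 with 5 libraries each, per the labels' protocols with crosslinking at 254 nm (150 mJ/cm2) and RNase I fragments of 50 to 200 nt. The submitters' processing notes name SAMtools 1.22.1, bedtools 2.31.1, UMI-tools 1.1.6 and STAR 2.7.11a among others, with GRCh38.p14 and GRCm38.p5 as builds. The site caller and how libraries were pooled are not stated in them. Per the file headers the authors assigned sites to genes and removed those in overlapping genes, and the deposited score, 0 for every site, was not used. Library depth is unknown.

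Gene IDs were named by position, from the 1 RefSeq gene (GRCm38.p6) of like class that enclosed 80% or more of their sites, which named 7407 of 7949 (93.2%). The members and lists were chosen with earlier results of these data known. Ratios of shares have exact conditional binomial 95% intervals, and medians of log2 ratios used a pseudocount of 1. Further genes were named by rule: 3 nearest profiles for each member with at least 10 sites, and from each list the 5 genes with most sites and the 3 with the largest change among those with at least 10. Genes named beyond this rule, such as the core catenins, Snai1, Snai2, Twist1 and the Cdh genes other than the members, were chosen after their values were seen. The interval of the share ratio was tested on simulated counts drawn independently, unlike neighbouring sites of 1 gene. Other steps were not tested in this way. Python 3.11.15, NumPy 2.4.6, pandas 2.3.3, SciPy 1.17.1 and matplotlib 3.10.9 were used. Other scales, minimum site numbers and overlap rules were tried as alternatives.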

Additional observations from a re-analysis of the deposited data

How the results depend on the processing

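No paired analysis was possible because the lists hold no values for single libraries, and for the same reason no library could be left out. The 5 ratios of shares with sites on both days (Cdh1 for all 3 pairs of days, Cdh11 for day 10 against day 0, Cdh3 for day 10 against day 3) kept their side of equality under sites of protein-coding genes alone, without the 100 genes with most sites, with sites at most 50 or 500 nt apart merged, and with the number of genes as the scale. Their intervals did not all keep theirs. Equality came inside for Cdh1 on day 10 against day 0 without the 100 genes (0.202 to 1.07) and at 500 nt (0.223 to 1.62) and for Cdh3 at 500 nt (0.986 to 11.4), and fell outside for Cdh1 on day 3 against day 0 without the 100 genes (1.001 to 4.32). The ratios ranged over 0.410 to 0.858, 1.92 to 2.14 and 0.212 to 0.444 for Cdh1 (day 10 against day 0, then day 3 against day 0, then day 10 against day 3), 29.1 to 76.5 for Cdh11 and 2.87 to 8.25 for Cdh3. The value outside its own interval was 0.444, under the gene-number scale. Counts of genes past a 2-fold difference followed the threshold by construction. With at least 5 sites they were 1293 higher and 1003 lower for day 10 against day 0, 631 and 583 between day 3 and day 0, and 1076 and 907 between day 10 and day 3. With the minimum of 10 they were 827 and 600, 304 and 320, and 680 and 496. With at least 20 sites they were 481 and 268, 132 and 130, and 388 and 224. At 3-fold they were 374 lower for day 10 against day 0, 161 higher and 199 lower for day 3 against day 0, and 290 lower for day 10 against day 3, and at 1.5-fold 473 higher for day 3 against day 0 and 761 lower for day 10 against day 3. The shared positions of Cdh1 and the share of day 10 sites in the last of 5 parts stayed inside their intervals under the other overlap rules and with the span taken from the first to the last site.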
